A study of Mus musculus with 2 samples.

Results

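The gp130-family receptors were examined in single cells of the mouse knee joint, in which 6 of 32245 gene columns belong to the family. The genes were taken by name as members of the family: Il6st, Lifr, Osmr, Il6ra, Il11ra1 and Cntfr. All 6 were found in both tables. Their levels, and the detection of Il6st together with each of the 5 partner receptors, were read in 6 classes of cells set by marker genes.

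Cytokines of the interleukin-6 family signal through a shared membrane protein, gp130, which Il6st encodes. For leukemia inhibitory factor, gp130 pairs with the LIF receptor (Lifr), and for oncostatin M it pairs chiefly with the oncostatin M receptor (Osmr). Interleukin-6, interleukin-11 and ciliary neurotrophic factor are first bound by non-signalling receptors (Il6ra, Il11ra1 and Cntfr), which then bring in gp130, the last of them together with Lifr. Bound receptors activate Jak kinases, which phosphorylate the transcription factor Stat3. In cartilage and bone this pathway is known for acting on growth plate chondrocytes and on bone-forming cells.

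The control library came from female mice aged 1 month of the genotype Stat3fl/fl, in which both Stat3 copies carry loxP sites and no Cre is present. The other library came from female mice of the same age labelled Acan-Cre+/Cre;Stat3fl/fl and called Stat3KO, which carry the same floxed alleles plus a Cre driven from the aggrecan (Acan) locus. The methods of the study describe this Cre as a tamoxifen-inducible form, kept heterozygous and activated in the first days after birth. Deletion is thus directed to cells that use Acan at that time. Live knee cells without CD31, Ter119 or CD45, the surface markers of endothelial, erythroid and white blood cells, were sorted from pooled animals and sequenced with a droplet 3′ method. There was 1 library per genotype, so each difference given here compares 2 libraries and has no replicate check and no test of significance.

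There were 4903 control and 1340 Stat3KO cells. Their median totals were 4344 and 3743 estimated UMIs, unique molecular identifiers that each stand for 1 captured RNA molecule. The libraries shared 2 cell barcodes. Of the control cells, 75.7% had a value above 0 for at least 1 of 4 globin genes, against 8.43% of Stat3KO cells. Levels are given as CPM, a gene's share of all estimated UMIs of a class, scaled as is usual for read counts. Stat3 in marked chondrocytes, defined next, had a level of 139.96 CPM in control and 98.4 CPM in Stat3KO cells. Which exons carry the loxP sites is not given in the sources used here, and a 3′ tag outside the deleted part does not check the label. Acan had levels of 5055 and 1844 CPM in the same cells, but its locus carries the Cre, so it does not check the label either.

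Marked chondrocytes are cells with the selection mark of the deposited tables and with Sox9 and Col2a1 above 0. There were 473 of them in the control and 291 in the Stat3KO library. The other classes are cells without the mark and above 0 for a pair of genes. They numbered 83 and 30 for Pi16 and Cd34, 138 and 90 for Bglap and Ibsp, and 267 and 29 for Tnmd and Thbs4. There were 98 and 50 cells for Adipoq and Lepr, and 219 and 59 for Prg4 and Clic5. These pairs mark, in that order, a fibroblast population, osteoblasts, tendon cells, marrow stromal cells and synovial lining cells. In every class and in both libraries, all markers of the matching list that the gate did not use were at least 2-fold above the rest of the classes, 8 of 8 for the chondrocytes and 4 to 6 for the other lists. Cells that met more than 1 gate, 60 in the control and 47 in the Stat3KO library, were left out. Globin values were above 0 in 55.1% to 78.3% of the control cells of the 5 pair classes and in 0% to 6.0% of those of Stat3KO. Alas2 and the 4 globins summed to 252 to 723 CPM in the control and 0 to 41.1 CPM in Stat3KO in these classes. The 10 chondrocyte markers summed to 3631 against 178 CPM in Adipoq+Lepr+, 5452 against 1187 CPM in Tnmd+Thbs4+ and 11238 against 5161 CPM in Bglap+Ibsp+ cells (control against Stat3KO). They summed to 489 against 247 CPM in Prg4+Clic5+ and 183 against 161 CPM in Pi16+Cd34+ cells, and 4 leukocyte markers to at most 37.9 CPM. The part of these other-cell markers in the comparisons was not tested. Acan was above 0 in 46.1% of Tnmd+Thbs4+, 37.0% of Bglap+Ibsp+, 12.2% of Adipoq+Lepr+, 9.13% of Prg4+Clic5+ and 6.02% of Pi16+Cd34+ control cells. Whether cells of the pair classes carried the deletion was not tested. Marked chondrocytes with a globin value above 0 numbered 0 in both libraries. The Stat3KO cells were the deeper ones in every class, with a median of 8776 against 5838 estimated UMIs in the marked chondrocytes and 7594 against 3069 in the Pi16+Cd34+ cells, so shares of positive cells were also taken after thinning every cell to 1500 UMIs.

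Il6st lies at chr13:112464070-112510086 on the plus strand of GRCm38. Lifr (chr15:7090614-7197489, plus strand) and Osmr (chr15:6813577-6874969, minus strand) are neighbours on chromosome 15. Cntfr (chr4:41657498-41697089, minus strand) and Il11ra1 (chr4:41699989-41769474, plus strand) are neighbours on chromosome 4, and Il6ra is at chr3:89864059-89913196 on the minus strand. Il11ra1 overlaps Galt on the same strand and 5 other annotated genes, so its reads cannot be told apart from theirs where they share an end. Its near-identical copy Il11ra2 was at 0 in every class. How reads that match both copies were assigned was not tested, so this 0 does not tell the copies apart. The RefSeq table for GRCm38.p6 held 13 start sites for the 6 receptors. The 250 bases before the start are shown for Il6st, the shared subunit, and for Osmr and Il11ra1, the receptors that differed by more than 2-fold in the marked chondrocytes. They are written 5′ to 3′ on the gene's strand, and capitals mark GC boxes (GGGCGG on either strand).
Il6st, chr13:112463820-112464069, plus strand: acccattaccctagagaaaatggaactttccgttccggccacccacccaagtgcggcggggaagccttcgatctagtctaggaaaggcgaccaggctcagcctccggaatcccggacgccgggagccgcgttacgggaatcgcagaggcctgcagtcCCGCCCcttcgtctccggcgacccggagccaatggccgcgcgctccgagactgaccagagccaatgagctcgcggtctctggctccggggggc
Osmr, chr15:6874314-6874563, minus strand: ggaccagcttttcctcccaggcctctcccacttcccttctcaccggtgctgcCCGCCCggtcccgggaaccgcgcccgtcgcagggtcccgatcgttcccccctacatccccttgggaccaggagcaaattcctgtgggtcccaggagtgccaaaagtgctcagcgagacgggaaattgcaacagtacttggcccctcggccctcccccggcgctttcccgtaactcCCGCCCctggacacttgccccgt
Il11ra1, chr4:41762060-41762309, plus strand, the start site of the pair listed whose window holds a GC box: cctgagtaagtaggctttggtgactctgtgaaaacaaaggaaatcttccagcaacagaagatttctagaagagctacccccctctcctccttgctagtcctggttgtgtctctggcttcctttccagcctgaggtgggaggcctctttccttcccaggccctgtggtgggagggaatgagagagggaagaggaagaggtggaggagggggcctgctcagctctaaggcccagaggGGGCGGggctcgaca

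Of the 13 windows, 7 held GGGCGG on either strand, against 32.7% of all 32851 windows of the same length. The 13 include 6 windows of Cntfr, some of which overlap and hold the same GC boxes, so the windows are not independent. CCAAT was found in 3 of 13 (33.8% of all windows). The letters TTCNNNGAA, the core of the element that STAT proteins bind, were found in 0 of 13, against 7.02% of all windows, and TATAAA likewise in 0 of 13, against 12.4%. These counts say only whether the letters stand in these windows.

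The common subunit came first in the Pi16+Cd34+ cells of both libraries. Its level there was 308 CPM in control and 304 CPM in Stat3KO cells. It was at 194 and 156 CPM in Adipoq+Lepr+ cells, 179 and 100.2 CPM in Prg4+Clic5+ cells, and 167 and 101 CPM in Tnmd+Thbs4+ cells. The marked chondrocytes held 122 and 69.0 CPM, and the Bglap+Ibsp+ cells were lowest in both libraries with 96.7 and 66.4 CPM. The highest class stood 3.19-fold above the lowest in the control and 4.58-fold above it in the Stat3KO library. In cells at 0 for the globins the highest class of Il6st differed between the libraries, with 18 Pi16+Cd34+ cells left in the control. Erythroid cells of the control, taken as 869 cells of no class with Alas2 and at least 1 globin gene above 0, should lack most of these receptors. They held 5.86 CPM of Il6st, below each of the 12 values.

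At 1500 UMIs per cell, Il6st was found in 40.7% of the Pi16+Cd34+ cells of the control (exact 95% binomial interval 29.9% to 52.2%) and in 36.7% of those of Stat3KO (19.9% to 56.1%). The corresponding shares of the marked chondrocytes were 12.6% (9.69% to 16.0%) and 9.70% (6.44% to 13.9%), so in both libraries the intervals of these classes lay apart. Intervals of classes next to each other in the order overlapped in both libraries, so no order between neighbours can be read. In the control the Pi16+Cd34+ interval also lay apart from those of Tnmd+Thbs4+ (15.8% to 26.1%), Prg4+Clic5+ (14.0% to 25.1%) and Bglap+Ibsp+ cells (6.87% to 19.0%). In Stat3KO the intervals of these classes overlapped it. Erythroid cells of the control gave 0.485%. Without thinning, 47.4% of the marked chondrocytes of the control (224 of 473) and 43.0% of those of Stat3KO (125 of 291) had Il6st above 0, against 3.22% of the erythroid cells, which had a median of 5424 estimated UMIs. All intervals cover counting error only.

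**Figure D1:**
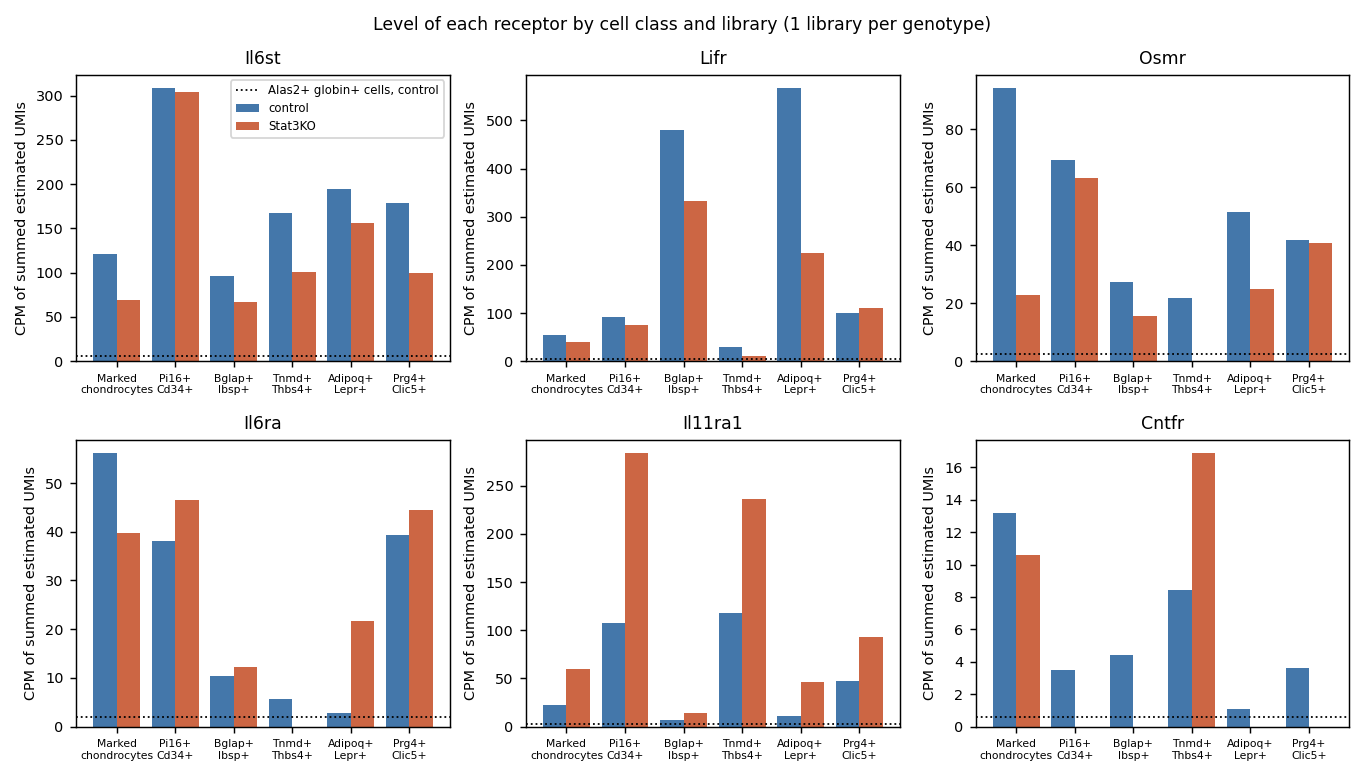
Level of each receptor as CPM of summed estimated UMIs (y axis, its own scale in each panel) in the 6 cell classes of the control (blue) and Stat3KO (orange) libraries, with the level in control erythroid cells as a dotted line. Il6st was highest in Pi16+Cd34+ cells in both libraries, Lifr was highest in Adipoq+Lepr+ and Bglap+Ibsp+ cells, and all 6 orange bars of Il11ra1 stood above the blue ones.

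Among the partner receptors, Lifr reached the highest levels of all. Adipoq+Lepr+ cells held 567 CPM (control) and 225 CPM (Stat3KO), and Bglap+Ibsp+ cells 480 and 334 CPM. The Prg4+Clic5+ cells held 100.2 and 111 CPM, where 3 of 59 Stat3KO cells gave 50.2% of the UMIs, the Pi16+Cd34+ cells 92.4 and 75.7 CPM and the marked chondrocytes 55.2 and 39.1 CPM. The lowest level was in Tnmd+Thbs4+ cells, with 30.1 CPM in the control, an 18.8-fold difference from the highest class, and 11.2 CPM in Stat3KO, which rests on 1.98 estimated UMIs. Background in erythroid cells was 5.59 CPM. At 1500 UMIs, 48.9% of Adipoq+Lepr+ (38.1% to 59.8%) and 42.4% of Bglap+Ibsp+ cells (33.6% to 51.6%) of the control were positive, against 14.4% of Prg4+Clic5+ cells (9.90% to 19.9%), the next class by level, whose interval lay apart from both. In Stat3KO the shares were 22.4% (11.8% to 36.6%), 36.4% (25.7% to 48.1%) and 9.09% (3.02% to 19.95%). There the interval of the Bglap+Ibsp+ cells lay apart from that of the Prg4+Clic5+ cells, and that of the Adipoq+Lepr+ cells did not.

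Osmr was highest in the marked chondrocytes of the control, at 94.1 CPM, with 22.9 CPM in those of Stat3KO. The Pi16+Cd34+ cells held 69.4 and 63.3 CPM, the Adipoq+Lepr+ cells 51.3 and 24.9 CPM, and the Prg4+Clic5+ cells 42.0 and 40.9 CPM. In Bglap+Ibsp+ cells it was at 27.5 and 15.4 CPM. The Tnmd+Thbs4+ cells of the control held 21.9 CPM, and Osmr was listed at 0 in 29 of 29 such cells of Stat3KO, which allows a share of cells with an Osmr UMI of up to 10.3% (3 of 29 cells). The control level was 1.30-fold above the floor of 3 UMIs for the Stat3KO library, and the counting interval of the ratio was 0 to 0.998. The chondrocytes thus came first of the 6 classes in the control, and in Stat3KO they came after the Pi16+Cd34+, Prg4+Clic5+ and Adipoq+Lepr+ cells. At 1500 UMIs the intervals of all neighbours overlapped. Pi16+Cd34+ cells were then positive in 11.1% (control) and 0 of 30 cells (Stat3KO), against 13.3% and 3.73% of the chondrocytes, so the Stat3KO order by level was not seen in the shares.

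Of the receptors that bind a cytokine without signalling, Il6ra was at 56.1 and 39.8 CPM in the marked chondrocytes (control and Stat3KO), at 39.4 and 44.5 CPM in Prg4+Clic5+ cells and at 38.1 and 46.4 CPM in Pi16+Cd34+ cells. It was low in the other classes, at 10.3 and 12.2 CPM in Bglap+Ibsp+ cells and 2.82 and 21.6 CPM in Adipoq+Lepr+ cells. The Tnmd+Thbs4+ cells held 5.73 CPM in the control, and 0 of 29 cells were positive in Stat3KO. The 3 classes with more Il6ra kept their place above the other 3 in both libraries, while the order within them differed.

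Il11ra1 had another order. The Tnmd+Thbs4+ cells of the control held 118 CPM and those of Stat3KO 236 CPM, and the Pi16+Cd34+ cells 108 and 283 CPM. The Prg4+Clic5+ cells held 47.1 and 93.0 CPM and the marked chondrocytes 22.0 and 59.8 CPM. The lowest levels were 10.53 and 46.7 CPM in Adipoq+Lepr+ cells and 7.16 and 13.7 CPM in Bglap+Ibsp+ cells, the classes with the most Lifr. Its level in control erythroid cells was 2.80 CPM. The 4 last places of the order were the same in both libraries. Cntfr was the least detected receptor, at 13.2 and 10.6 CPM in the marked chondrocytes, with 35 and 25 positive cells, and at 8.42 and 16.9 CPM in Tnmd+Thbs4+ cells, the latter from 2.996 estimated UMIs. In the other 4 classes it was at 1.06 to 4.44 CPM in the control and at 0 in Stat3KO, where 0 of 90 Bglap+Ibsp+ cells allows a share of cells with a UMI of up to 3.33% (3 of 90 cells).

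**Figure D2:**
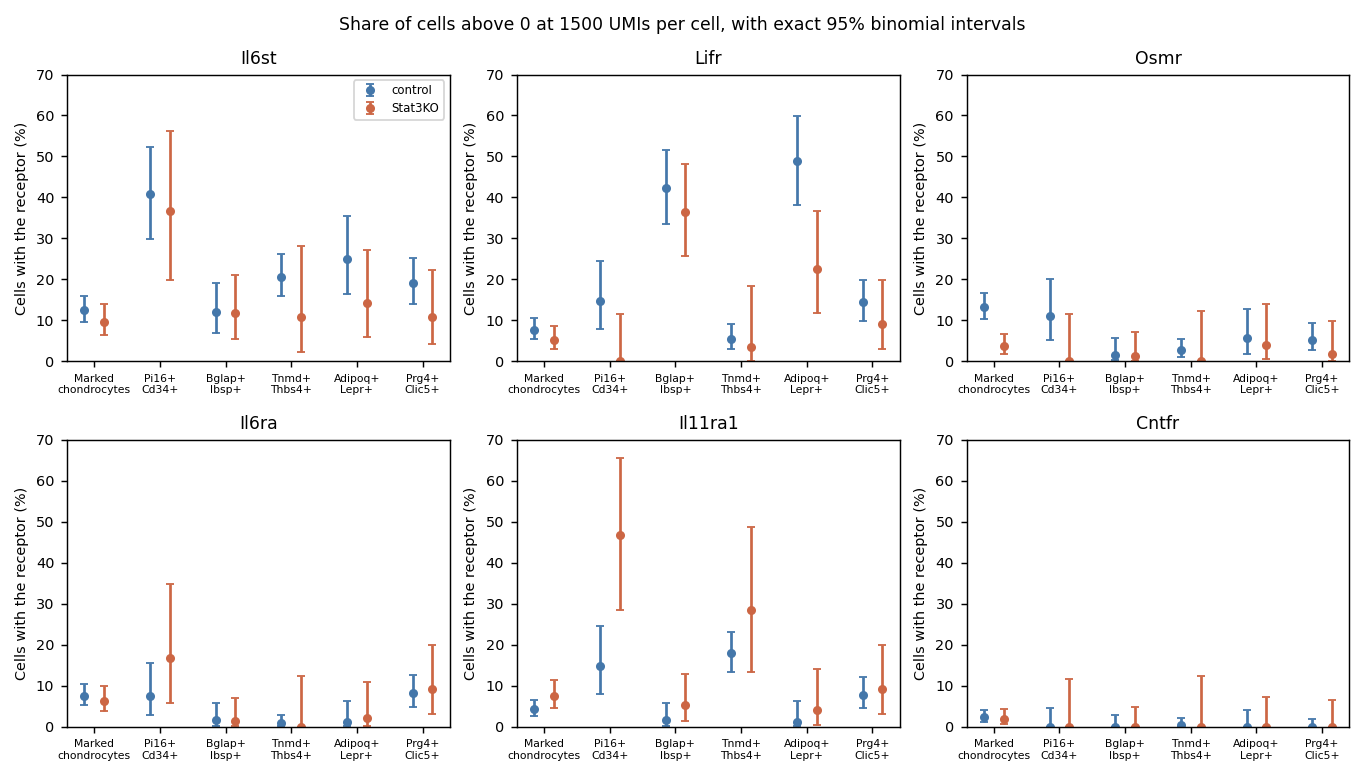
Share of cells (y axis, percent) with each receptor above 0 after thinning to 1500 UMIs per cell, by class, in the control (blue) and Stat3KO (orange) libraries; points are shares and bars exact 95% binomial intervals, which cover counting error only. Most intervals of neighbouring classes overlap, with Lifr in Adipoq+Lepr+ and Bglap+Ibsp+ cells of the control (48.9% and 42.4%) apart from the other 4 classes.

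The make-up of the partners separated the classes. A UMI counts 1 captured 3′ end whatever the length of the transcript, so the UMIs of the 5 partners were added up and each partner given as a percent of the sum. Lifr made up 90.7% of the partner UMIs in Bglap+Ibsp+ cells of the control (86.9% to 93.4%) and 89.0% in those of Stat3KO (84.6% to 92.8%). In Adipoq+Lepr+ cells its part was 89.6% and 70.7%. Il11ra1 made up 64.0% (57.2% to 70.4%) and 89.4% (76.9% to 96.5%) in Tnmd+Thbs4+ cells. In the Prg4+Clic5+ cells no partner passed 43.2% in the control, the value of Lifr, followed by Il11ra1 with 20.3%, Osmr with 18.1% and Il6ra with 17.0%.

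In the marked chondrocytes the make-up differed between the libraries. Osmr gave 39.1% of the partner UMIs in the control (35.5% to 43.0%) and 13.3% in Stat3KO (10.4% to 16.8%). Il11ra1 gave 9.13% (7.13% to 11.6%) and 34.7% (30.3% to 39.1%). The parts of Lifr (22.9% and 22.7%), Il6ra (23.3% and 23.1%) and Cntfr (5.47% and 6.15%) differed by less than the width of their intervals. The first partner was therefore Osmr in one library and Il11ra1 in the other. The partners together had 1.98 UMIs per Il6st UMI in the control and 2.495 in Stat3KO in these cells, against 5.48 and 5.65 in Bglap+Ibsp+ cells and 1.01 and 1.54 in Pi16+Cd34+ cells.

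**Figure D3:**
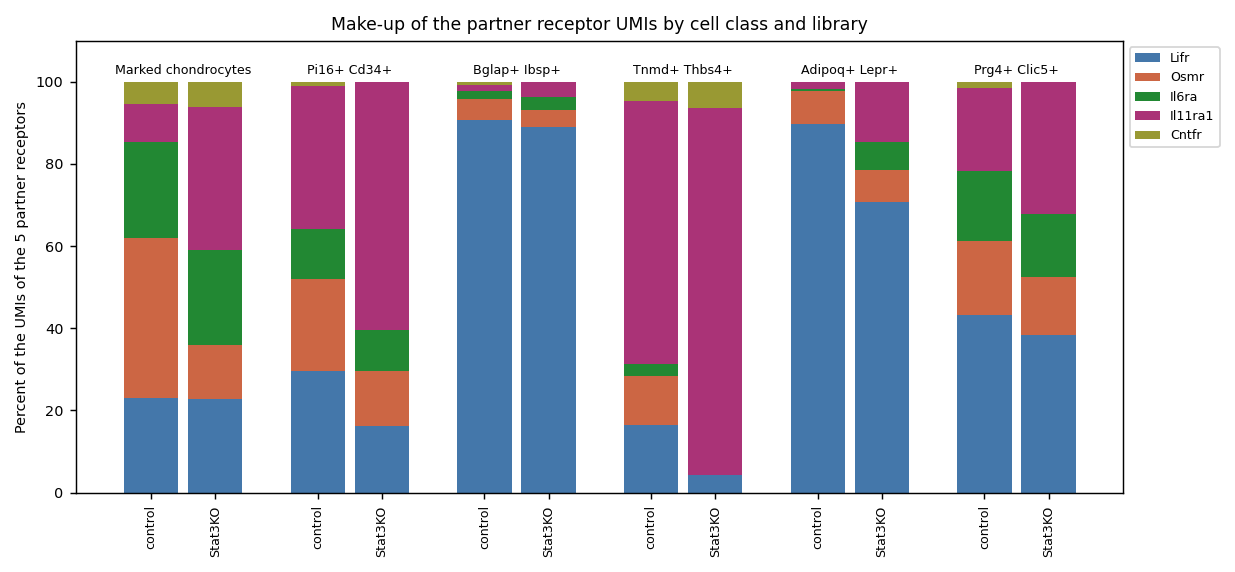
Percent of the summed UMIs of the 5 partner receptors given by each (y axis) for the 6 classes, control and Stat3KO side by side. Lifr fills 90.7% and 89.0% of the bars of the Bglap+Ibsp+ cells, Il11ra1 most of those of the Tnmd+Thbs4+ cells, and the marked chondrocytes go from 39.1% to 13.3% Osmr and from 9.13% to 34.7% Il11ra1.

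Stat3KO was then compared with the control within each class, as log2((Stat3KO CPM + 1)/(control CPM + 1)). In the marked chondrocytes, 2 of the 6 receptors were past 2-fold, where 9.53% of the 7490 genes with a mean of 10 CPM or more were. Osmr was 3.97-fold lower (log2 ratio -1.99, interval of the ratio 0.183 to 0.323 from counting error alone), with 154 of 473 positive control cells and 47 of 291 positive Stat3KO cells. At 1500 UMIs its share was 13.3% (10.3% to 16.8%) against 3.73% (1.80% to 6.75%). Il11ra1 was 2.65-fold higher (log2 ratio 1.41, interval of the ratio 2.01 to 3.67), with 59 of 473 against 104 of 291 positive cells. At 1500 UMIs, where few UMIs of Il11ra1 remain, its shares were 4.20% (2.55% to 6.49%) and 7.46% (4.62% to 11.3%), which overlap, and the log2 ratio was 0.74, under 2-fold. Il6st was 1.75-fold lower (log2 ratio -0.81, interval of the ratio 0.474 to 0.681). Lifr and Il6ra were each at a log2 ratio of -0.49 and Cntfr at -0.29, beside a median of -0.16 over all genes that reached 10 CPM in each library.

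The direction for Il11ra1 was the same in all 6 classes. Its log2 ratio ran from 0.85 in Bglap+Ibsp+ cells to 2.05 in Adipoq+Lepr+ cells. The first of these rests on 4.55 against 8.85 UMIs, and its counting interval held 1 (ratio 0.535 to 6.76). The log2 ratio was 1.39 in Pi16+Cd34+ and 0.97 in Prg4+Clic5+ cells. In Tnmd+Thbs4+ cells Il11ra1 was 1.998-fold higher. Among the 5712 genes with a mean of at least 10 CPM in all 6 classes, 9.35% were higher in Stat3KO in all 6. Il6st went the other way, lower in all 6 classes at log2 ratios from -0.83 in Prg4+Clic5+ to -0.02 in Pi16+Cd34+ cells, as 18.2% of those genes were. For Il6st the counting interval of the ratio held 1 in Pi16+Cd34+ (0.717 to 1.37), Bglap+Ibsp+ (0.460 to 1.05) and Adipoq+Lepr+ cells (0.550 to 1.19). Osmr was lower in the 5 classes with a ratio, but the size differed between them, from -1.99 in the marked chondrocytes to -0.13 in Pi16+Cd34+ and -0.04 in Prg4+Clic5+ cells. In cells at 0 for the globins its value in Prg4+Clic5+ cells was 0.45, the opposite direction. At 1500 UMIs per cell it was -1.46 in Prg4+Clic5+ cells, with 5.26% and 1.82% of cells positive, and in Pi16+Cd34+ cells the shares were 11.1% and 0 of 30, values that rest on 1 and 0 positive Stat3KO cells. For Lifr in Prg4+Clic5+ cells the log2 ratio of 0.15 turned to -0.60 without the 3 cells with most Lifr UMIs and to -0.74 at 1500 UMIs. Whether these ratios differ between classes was not tested. The whole control library differs from the Stat3KO library in globin, depth and cell number, and the part of these in the ratios was not tested.

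**Figure D4:**
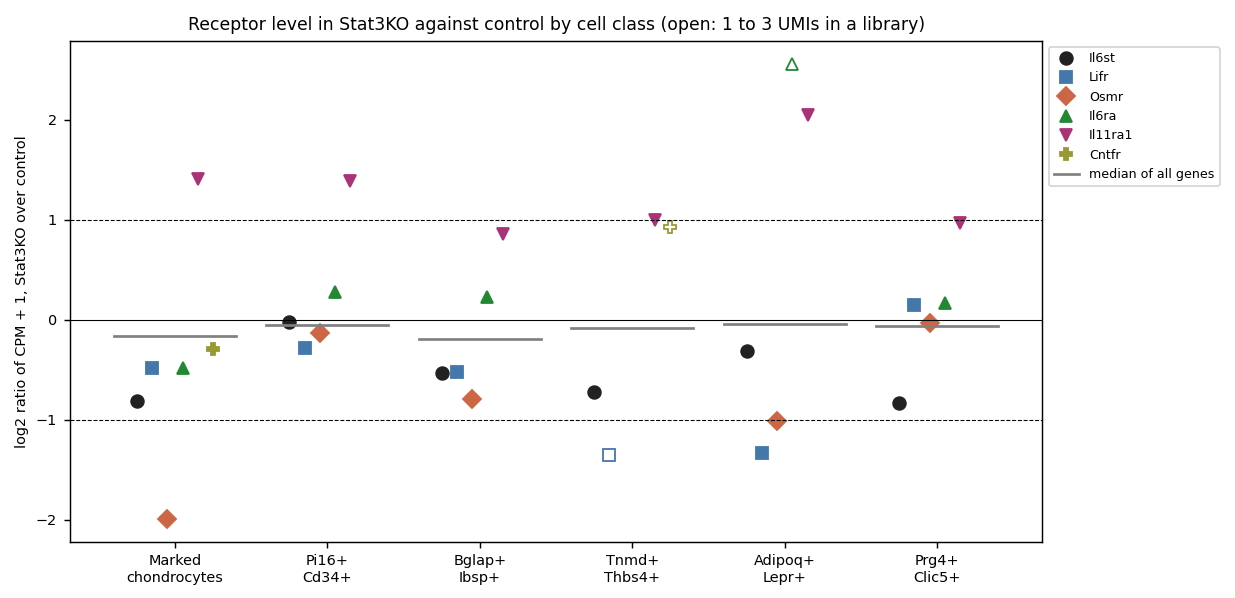
log2 ratio of CPM + 1, Stat3KO over control (y axis), of each receptor in each class, with 2-fold as dashed lines and the median of all genes that reached 10 CPM in each library as a grey line; open symbols rest on 1 to 3 UMIs in a library, and receptors at 0 in a library are not drawn. Il11ra1 lies between 0.85 and 2.05 in all 6 classes, and Osmr in the marked chondrocytes is lowest at -1.99.

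In the pair classes the share of all genes past 2-fold was larger, and the counts of receptors have to be read beside it. In Pi16+Cd34+ cells 1 of 5 receptors tested was past 2-fold, Il11ra1, where 27.8% of all genes were. In Bglap+Ibsp+ cells it was 0 of 5 (20.5% of all genes) and in Prg4+Clic5+ cells 0 of 5 (14.4%). In Tnmd+Thbs4+ cells 29.7% of all genes were past 2-fold on this scale, which counts genes listed at 0 as well. Of the 5 receptors tested there, Osmr passed on that scale, but its bound from the floor was only 1.30-fold. Lifr passed at 1.98 estimated UMIs in Stat3KO, with a ratio of 0.374 and a counting interval of 0.0436 to 1.46. In Adipoq+Lepr+ cells 4 of 5 were past 2-fold (26.3% of all genes). Lifr was 2.52-fold lower there (log2 ratio -1.33, interval of the ratio 0.299 to 0.523) and Osmr 2.02-fold lower (interval 0.179 to 1.15). Il11ra1 was 4.14-fold higher (interval 1.28 to 16.6), from 4 against 10 positive cells. Il6ra rested on 1 positive control cell and 6 Stat3KO cells, with a ratio of 7.49 and an interval of 0.962 to 338. In control cells at 0 for the globins, Lifr in Adipoq+Lepr+ cells had a log2 ratio of -1.31 and Il11ra1 of 2.32. The other Il11ra1 ratios of these cells were 1.44 in Bglap+Ibsp+, 0.95 in Tnmd+Thbs4+ and 1.30 in Prg4+Clic5+ cells. The first of these had a mean of 9.42 CPM, under the 10 CPM needed to count it. The 18 Pi16+Cd34+ control cells at 0 were too few for a ratio.

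Within the marked chondrocytes, cells with Prg4 above 0 (101 in the control and 122 in Stat3KO), the gene of the surface lubricant of articular cartilage, were set beside those at 0 (372 and 169). Osmr was at 89.3 and 94.9 CPM in the control subsets and at 19.5 and 25.4 CPM in those of Stat3KO, so the lower level was seen in both. Il11ra1 was higher in the Prg4-positive cells of both libraries, at 53.0 against 16.9 CPM in the control and 82.5 against 44.0 CPM in Stat3KO. The share of Il11ra1-positive cells was 17.8% (10.9% to 26.7%) against 11.0% (8.03% to 14.7%) in the control, with overlapping intervals. In Stat3KO the shares were 42.6% (33.7% to 51.9%) and 30.8% (23.9% to 38.3%), which overlap too. Both subsets had more Il11ra1 in Stat3KO. Prg4-positive cells were 101 of 473 in the control and 122 of 291 in Stat3KO. The part of this mix in the Il11ra1 ratio of all marked chondrocytes was not tested. Il6st levels in positive and negative cells were 139 and 119 CPM in the control and 65.3 and 71.6 CPM in Stat3KO. Cells with Ihh or Col10a1 above 0, genes of prehypertrophic and hypertrophic chondrocytes, numbered 27 and 16. In these Osmr was at 28.9 and 8.83 CPM, below the 100.05 and 24.2 CPM of the remaining cells in each library, on 6.86 and 1.98 estimated UMIs. Il6st was detected in 17 of the 27 and 10 of the 16. These cells were deeper, with medians of 8467 and 14314 estimated UMIs against 5731 and 8668 in the remaining cells, and their Il6st levels were 95.3 against 124 CPM in the control and 66.4 against 69.3 CPM in Stat3KO.

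Co-detection was read as the share of cells with Il6st above 0 among cells with and without a partner. In the marked chondrocytes of the control, Il6st was found in 59.7% of 119 Lifr-positive cells (50.3% to 68.6%) and 43.2% of 354 Lifr-negative cells (38.0% to 48.6%), and the intervals lay apart. The shares were 55.8% of 154 Osmr-positive (47.6% to 63.8%) and 43.3% of 319 Osmr-negative cells (37.8% to 48.9%), and 55.7% and 44.4% for Il6ra, with overlapping intervals. For Il11ra1 they were 45.8% and 47.6%. In Stat3KO it was Il11ra1 whose intervals lay apart, with Il6st in 55.8% of 104 positive (45.7% to 65.5%) and 35.8% of 187 negative cells (29.0% to 43.2%). The shares there were 60.0% and 41.4% for Cntfr, from 25 positive cells, and 55.4% and 39.4% for Lifr.

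Detection of any pair of genes goes up with depth, and at 1500 UMIs the pattern was another one. For Osmr in the control the shares became 13.3% of 60 positive and 12.5% of 392 negative cells, and in Stat3KO 0 of 10 positive cells held Il6st. The intervals then lay apart for Il11ra1 in the control, with 7 of 19 positive cells (36.8%, 16.3% to 61.6%) against 11.5% of 433 (8.69% to 14.9%), and for Lifr in Stat3KO, with 6 of 14 (42.9%, 17.7% to 71.1%) against 7.87% of 254 (4.88% to 11.9%). Over all classes, libraries and partners with at least 5 cells on each side, the share was higher in partner-positive cells in 38 of 45 cases with all UMIs and in 21 of 32 cases at 1500 UMIs. Intervals lay apart in 2 cases at each depth, the 4 cases given above for the marked chondrocytes, and no case was common to both depths. For Lifr at 1500 UMIs the share was higher in positive cells in 9 of 10 cases, with intervals apart in 1 of them. No count for other pairs of genes was set beside these.

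**Figure D5:**
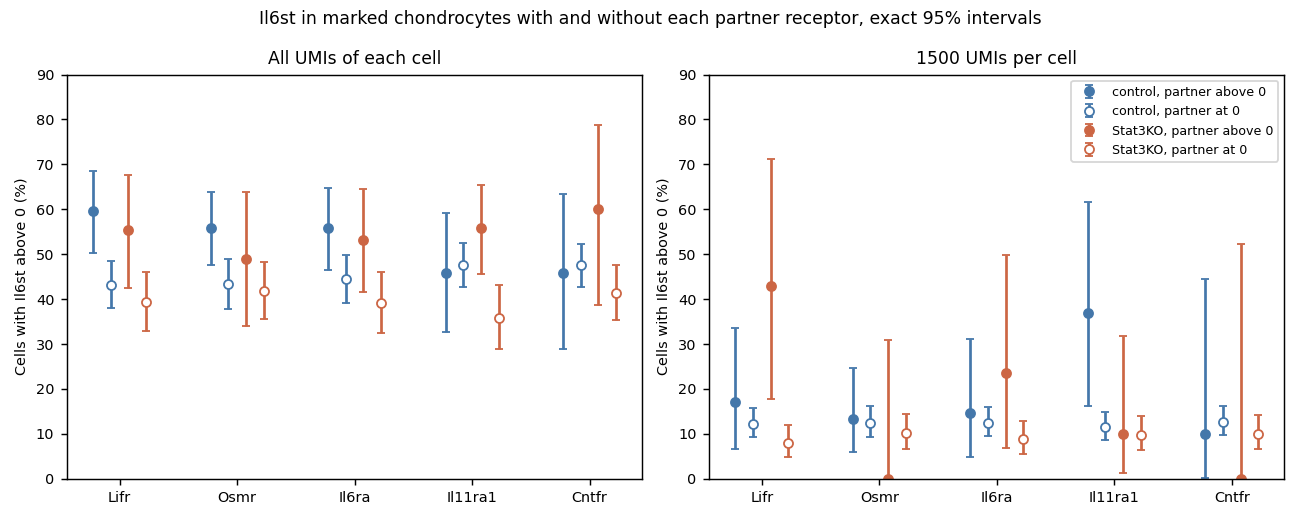
Share of marked chondrocytes with Il6st above 0 (y axis, percent) among cells with a partner receptor above 0 (filled) or at 0 (open), for each partner on the x axis and each library, with exact 95% binomial intervals. With all UMIs the intervals lie apart for Lifr in the control (59.7% against 43.2%) and for Il11ra1 in Stat3KO (55.8% against 35.8%); at 1500 UMIs per cell both pairs overlap.

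Combinations of receptors were counted as well. Of the 224 Il6st-positive marked chondrocytes of the control, 66 had no partner above 0, 76 had 1 partner and 82 had at least 2. Of the 125 in Stat3KO, 24 had none, 51 had 1 and 50 had at least 2. The share without a partner was 29.5% (23.6% to 35.9%) and 19.2% (12.7% to 27.2%), and 61.4% and 57.7% at 1500 UMIs. Cells with a partner and no Il6st numbered 143 and 97, and 22.4% and 23.7% of the cells had none of the 6 receptors. Among Pi16+Cd34+ cells, 19 of 56 Il6st-positive cells of the control and 0 of 24 of Stat3KO lacked a partner, the latter allowing a share of up to 12.5% (3 of 24 cells), and at 1500 UMIs the shares were 57.6% and 54.5%.

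Of the 43 other genes of the pathway, 27 had a mean of at least 10 CPM in the marked chondrocytes, of which 6 were past 2-fold higher and 1 past 2-fold lower in Stat3KO, beside 9.53% of all genes past 2-fold (263 higher and 451 lower). All 3 ligands measured were among the higher ones. Il11, the ligand of Il11ra1, had levels of 43.9 CPM (control) and 313 CPM (Stat3KO), a log2 ratio of 2.80, with 64 of 473 and 117 of 291 positive cells, and at 1500 UMIs in 4.65% (2.90% to 7.01%) and 23.5% (18.6% to 29.0%) of cells. In the other classes its level was 0.653 to 6.55 CPM (control) and 0 to 62.6 CPM (Stat3KO), the highest value in Bglap+Ibsp+ cells. Cebpb, a transcription factor of acute responses, was at 44.6 and 177 CPM in the marked chondrocytes (log2 ratio 1.96). It was higher in Stat3KO in the other 5 classes as well. In Pi16+Cd34+ cells it was at 6.77 and 363 CPM. The former rests on 1.92 estimated UMIs in 2 of 83 cells, and 3 of 30 Stat3KO cells gave 43.1% of the UMIs of the latter. Timp1, an inhibitor of matrix metalloproteinases and known Stat3 target, was at 84.5 and 252 CPM (log2 ratio 1.57). None of the 2 kinases, 7 feedback regulators and adaptors and 2 shedding proteases measured was past 2-fold. In the pair classes the numbers tested, higher and lower were 29, 10 and 0 for Pi16+Cd34+, 25, 4 and 0 for Bglap+Ibsp+ and 29, 12 and 4 for Tnmd+Thbs4+ cells. They were 28, 5 and 3 for Adipoq+Lepr+ and 25, 4 and 0 for Prg4+Clic5+ cells. Past 2-fold among all genes, in the same order of classes, were 27.8%, 20.5%, 29.7%, 26.3% and 14.4%. No kinase was past 2-fold in any of the 6 classes. The ligands that reached 10 CPM were 1 to 3 per class, and all were past 2-fold higher except 1 in Pi16+Cd34+ cells.

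Over the 12 points given by the 6 classes in both libraries, the genes whose log2(CPM + 1) was most like that of a receptor by Pearson's r were named as a description, among 4741 other genes (4742 for Il6ra and Cntfr) that reached 50 CPM in 2 or more points. Points share a library or a class and are not independent. Il6st was most like Nfia (0.95), Col5a3 (0.94) and Smc6 (0.94), and Lifr most like Sema6d (0.96) and Cd1d1 (0.89). Osmr was nearest to Lars (0.94) and Sik3 (0.93), and Il6ra to Atf3 (0.89), Mapre1 (0.89) and Cox7a2l (0.87). For Il11ra1 the genes were Meox2 (0.92), Gem (0.91) and Cys1 (0.90), and for the sparse Cntfr they were Igf2 (0.87), Col16a1 (0.86) and Gm15867 (0.85). Between the receptors themselves r was 0.01 for Il6st and Lifr and 0.44 for Il6st and Osmr. The pair of neighbouring genes on chromosome 15, Lifr and Osmr, had an r of 0.46, and the pair on chromosome 4, Il11ra1 and Cntfr, one of 0.09. Lifr and Il11ra1 ran opposite to each other, with an r of -0.77.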

How the data were processed

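Per the study's methods and the submitters' processing notes, the authors processed the reads in Partek Flow with STAR 2.7.3a on mm10, removed duplicate UMIs, counted on Gencode genes, called cells and removed ambient RNA with SoupX (R 4.0.3). Gene columns, as deposited, hold log2 of CPM plus 1 for each cell. The deposited total per cell is an estimated count, not whole after ambient removal, the mitochondrial share is a percent and the number of expressed genes a score, all from the authors. A text column marks their selected cells. The methods name a limit of 5% mitochondrial counts, but 694 control and 492 Stat3KO cells of the tables were above it, and the tables hold somewhat fewer cells than the methods state. A batch correction is described too, and whether it acted on these values is not given in the sources used here.

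UMIs were estimated by undoing the logarithm and scaling the CPM with the total of each cell. Of these estimates, 74.9% (control) and 97.3% (Stat3KO) were within 0.1 of a whole number, so no count model was used. UMIs of a class were summed and divided by their total (23576400 and 7452650 UMIs in all, to 6 digits, 177720 to 2853800 per class, where 1 UMI is worth 0.350 to 5.63 CPM). With 1 library per group there was no test. Shares have exact Clopper-Pearson 95% intervals, and ratios an exact interval from rounded UMIs, which cover counting error only. A ratio needed 20 cells in both libraries, and a gene at 0 was bounded with 3 UMIs. A count of 0 cells was bounded with 3 cells of the total, which is below the exact upper limit. That limit is 11.9% for 0 of 29, 4.02% for 0 of 90 and 14.2% for 0 of 24 cells. For thinning, values were rounded and 1500 UMIs drawn per cell. Doublets were not called; cells meeting several gates were left out and the deepest 2% tried. The members and lists were chosen with earlier results of these data known. Named genes were the 6 receptors, Stat3, Acan, pathway genes past 2-fold with at least 50 CPM in the marked chondrocytes and the 3 most alike genes per receptor, less those not reported here; Il11 and Cebpb in other classes, and counts by role, were added after values were seen. The gate of the erythroid cells was chosen after values were seen. Positions are from Gencode M21 on GRCm38, another release than the authors' on the same assembly. Scripts (python 3.11.15, numpy 2.4.6, pandas 2.3.3, scipy 1.17.1) were tested on simulated data.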

Additional observations from a re-analysis of the deposited data

How the results depend on the processing

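No paired analysis was possible because each group has 1 library, and no library could be left out. In the marked chondrocytes all log2 ratios kept their direction under 12 alternatives, and 71 values stayed within 1.5-fold. The alternative of cells at 0 for the globins kept all 473 and 291 of these cells, so its values could not differ. Thinning to 1500 UMIs took Il11ra1 to 0.74 and left 1 receptor past 2-fold in place of 2. Il6st passed 2-fold in 1 alternative. Il11ra1 was higher in Stat3KO in all 61 alternatives over the 6 classes (0.16 to 3.33), and Il6st lower in 59 of 63, the exceptions being in Pi16+Cd34+ and Bglap+Ibsp+ cells. Leaving out the deepest 2% of cells kept all 83 and 30 Pi16+Cd34+ cells, so it could not change the ratios there. The number of receptors past 2-fold in Pi16+Cd34+ cells was 4 on thinning. In Bglap+Ibsp+ cells it was 1 with cells of several gates kept, without the 3 cells with most UMIs of a receptor, relative to the median ratio and on thinning; Il11ra1 there (1.44 in cells at 0 for the globins, 1.09 with the stricter gate) and Il6ra (2.01 in the former) had means under 10 CPM and were not counted. In Tnmd+Thbs4+ cells it was 4 with cells of several gates kept, with equal weight of cells and relative to the median, and 1 with a pseudocount of 10 CPM and on thinning. In Prg4+Clic5+ cells it was 2 in cells at 0 for the globins and 1 with gate genes at 2 or more UMIs, with at most 5% mitochondrial counts, without the 3 cells, relative to the median and on thinning. Thinning gave Il6st shares of 12.6% and 9.70% in the marked chondrocytes, and differences in Il6st between Osmr-positive and Osmr-negative cells of 0.833 points in the control (12.6 with all UMIs) and -10.1 points in Stat3KO (7.13). The number of receptors with the same highest class in both libraries was 1, Il6st. It was 3 with gate genes at 2 or more UMIs or without the 3 cells, and 0 in cells at 0 for the globins. Fewer than 20 cells remained, and no ratio was given, for Pi16+Cd34+ and Tnmd+Thbs4+ cells with the stricter gate, Pi16+Cd34+ cells without globin and Tnmd+Thbs4+ cells within the mitochondrial limit. Other causes were not tested. Depth limits Cntfr throughout and Osmr and Il6ra in the small classes.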
